A study of Mus musculus with 8 samples.

Results

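The diet comparison in male mice was described from 4 of the 8 arrays of a study of C57BL/6J Min/+ mice, a strain that carries 1 mutant copy of the Apc tumour suppressor gene and develops intestinal adenomas. The arrays were taken by their labels: 2 arrays of males on the semisynthetic AIN-93G control diet (Control male 1 and Control male 2) and 2 arrays of males on a Western-type diet (Western male 1 and Western male 2). Both diet groups carried the Min allele, so no mouse without it enters the comparison. The Western-type diet was AIN-93G made rich in fat and poor in fibre, vitamin D, calcium and folate, and milk fat made up 66.4% of its fat, rapeseed and sunflower oil the other 33.6%. Total RNA of the small intestine was hybridised in 1 colour to Agilent arrays, with RNA of 1 to 3 mice per array after a feeding period that the labels give as 18 months, an unusually long time for this strain that could not be checked here. The labels give no age, no part of the intestine and no separation of adenoma from other tissue, and whether both arrays of a diet come from separate mice is not stated. P-values are therefore about array-to-array spread alone, some of which may be technical. The arrays held 39429 probes, and 17249 genes, 12586 of them with a symbol, were well above background on all 4 male arrays and were tested.

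The small intestine absorbs dietary fat, sugar, minerals and vitamins through enterocytes, and these cells adjust their enzymes to what arrives in the lumen. Fatty acids bind the nuclear receptor PPAR-alpha, which switches on genes for burning fat, among them Pdk4, a kinase that shuts off pyruvate dehydrogenase and so spares sugar carbon from oxidation. The title of the series points to PDK4, to Erk/Akt and mTor signalling, to immunity of the gut and to energy metabolism, and the genes below are ordered by these functions.

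The 4 arrays were alike in overall pattern, with correlations over genes between 0.980 and 0.991, and their 75th percentile of signal, to which every value is set, lay between 476 and 828. All values are log2 signal minus that percentile, so 0 is the level of a probe at that percentile, and levels of different genes are not compared. The Y-linked transcripts Ddx3y and Eif2s3y were well above background on all 4 arrays, as the male labels require. All 8 enterocyte markers and all 7 goblet cell markers measured were above background on each array. Control male 1 stood apart by its muscle. The smooth muscle genes Actg2, Acta2, Cnn1 and Tpm2 lay 5.13 to 5.74 above Control male 2 on it, and the myosin Myh11 was above background on Control male 1 and Western male 1 alone. Vip, S100b and Prph, genes of enteric neurons and glia, were above background on Control male 1 alone. In all, 1089 genes were at least 2-fold brighter on Control male 1 than on Control male 2 and 457 were at least 2-fold dimmer. The Western arrays also differed: 664 genes were at least 2-fold brighter on Western male 1 than on Western male 2, and 276 were at least 2-fold dimmer. Because of the muscle on Control male 1, muscle and matrix genes are described apart, and for some lists counts are also given without that array. In whole tissue, fewer cells of a type and less RNA per cell cannot be told apart.

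**Figure D1:**
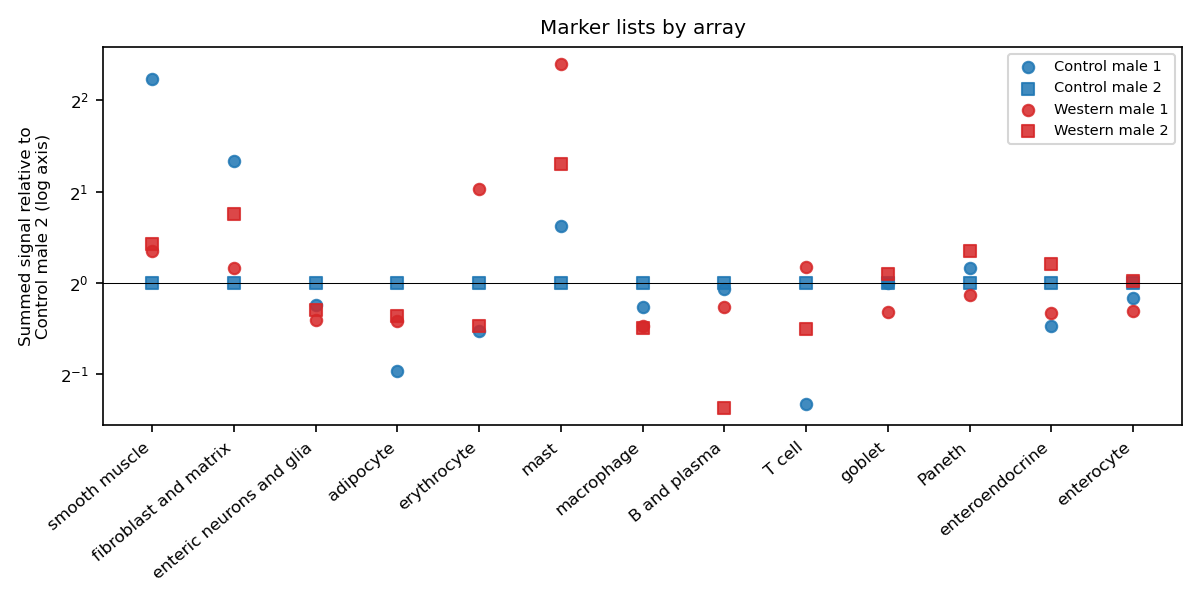
Summed linear signal of each cell type's marker list on the 4 male arrays, divided by the sum on Control male 2, on a log axis. Circles are replicate 1 and squares replicate 2, blue is control diet and red Western diet. Smooth muscle markers sum to 4.72 times the Control male 2 level on Control male 1 and to 1.28 and 1.35 times on the Western arrays, and mast cell markers sum highest on both Western arrays. A linear sum follows its brightest members, which for smooth muscle on Control male 2 were Csrp1 and Tagln (3.46 and 2.56 in log2). Western male 2 lay below Control male 2 for Actg2, Acta2 and Cnn1 and above it for Csrp1, Tagln and Tpm2.

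No gene passed the threshold of 0.05 in the limma fit after Benjamini-Hochberg adjustment over 17249 genes (0% called, smallest adjusted p 0.999971). At an unadjusted p under 0.05, limma gave 284 genes (1.65% of those tested), 126 higher (0.73%) and 158 lower (0.916%) on the Western diet. The words higher and lower below therefore state measured differences that did not pass the test, and the adjusted p from limma was at least 0.999971 for each named gene that was in the fit. Genes above background on only 1 diet were not in it. Reassigning 4 arrays to 2 groups of 2 allows 6 arrangements, so an exact two-sided permutation test cannot go below p = 0.333. Diet groups were instead read by overlap. The lowest Western array lay above the highest control array for 2424 genes (14.1% of those tested), and the highest Western array lay below the lowest control array for 1810 genes (10.5%). With a mean difference of at least 2-fold as well, 71 genes were higher (0.412%) and 71 were lower (0.412%). With another background correction (normexp) 50 were higher and 32 lower. Leaving out 1 array gave between 157 and 276 higher and between 116 and 579 lower. Fewer arrays then had to be apart, and the mean difference changed as well. Against Control male 2 alone, 60 of those 71 higher genes and 34 of those 71 lower genes kept a difference of at least 2-fold in the same direction. Both Western arrays lay above Control male 2 for 33.8% of all genes tested and below it for 33.3%. List counts below are read against 14.1% and 10.5%, or against 33.8% and 33.3% where Control male 1 is left out. A gene's gap is the distance between the nearest arrays of the diets when they do not overlap, and the 12 genes with a symbol and the largest gap in each direction are shown by array.

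**Figure D2:**
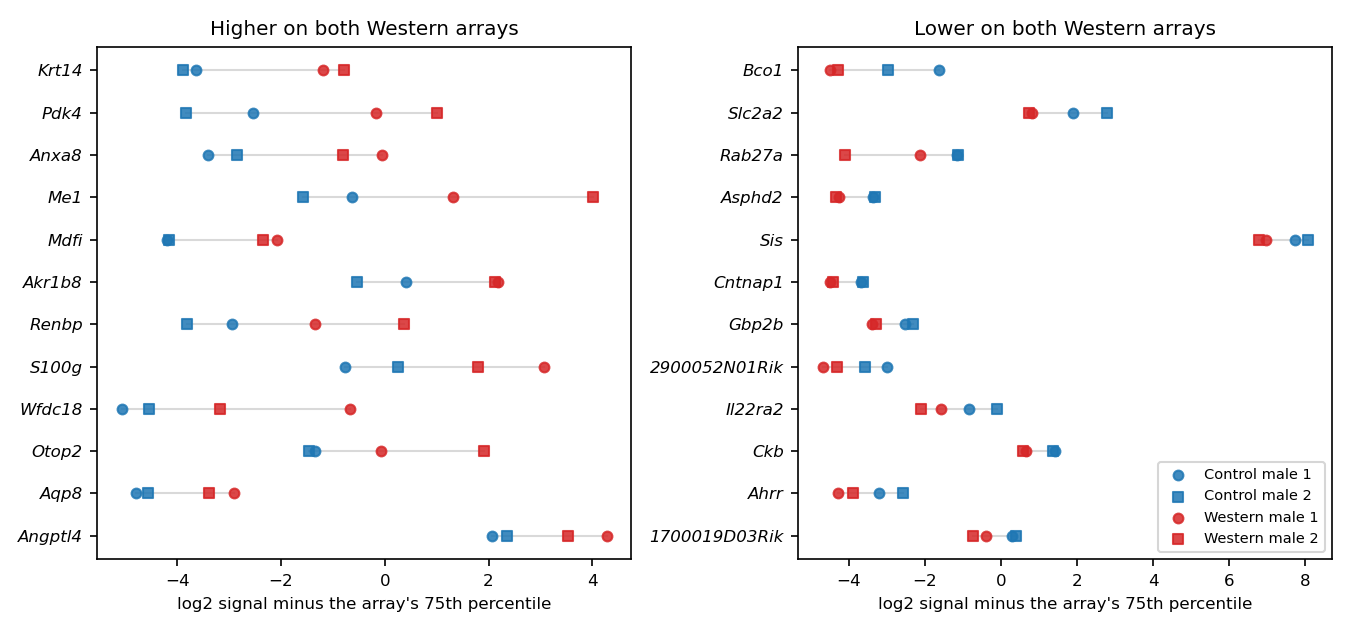
Log2 signal minus the array's 75th percentile for the 12 genes with the largest gap in each direction, 1 row per gene and 1 point per array. In each row the 2 red Western points lie on 1 side of the 2 blue control points, with gaps from 1.16 (Angptl4) to 2.46 (Krt14) on the left and from 0.68 (1700019D03Rik) to 1.30 (Bco1) on the right.

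Genes that favour fat as fuel gave some of the largest differences. Pdk4 measured -2.54 and -3.83 on the control arrays and -0.16 and 1.00 on the Western arrays. The Western arrays thus lay apart from the control arrays by 2.38 at the nearest (Western male 1 against Control male 1, both on slide 1), and the mean difference was 3.61 ± 0.57 (SE, 2 against 2 arrays), or 12.2-fold. With normexp background correction the difference was 2.45, or 5.47-fold. Angptl4, a secreted inhibitor of lipoprotein lipase and a PPAR target, measured 2.07 and 2.36 on the control arrays and 4.28 and 3.53 on the Western arrays, a difference of 1.69 ± 0.33. Acadl, which starts the mitochondrial oxidation of long-chain fatty acids, measured 1.25 and 0.98 against 2.10 and 2.17, a difference of 1.02 ± 0.23. In each of these genes both Western arrays were the higher ones. Pex11a, a protein of peroxisome division, differed by 0.67 ± 0.23 in the same direction.

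The wider list of PPAR targets and fatty acid oxidation was mixed. Of its 43 measured members, 15 were higher on both Western arrays without overlap and 0 were lower, against 14.1% and 10.5% of all genes, and 4 of the 15 were at least 2-fold higher. The list's median difference was 0.32, against 0.02 over all genes tested. Without Control male 1 the picture was flatter: 15 members lay above Control male 2 on both Western arrays and 13 lay below it, where 33.8% and 33.3% of all genes did so, and the median was 0.10. Among members chosen after their values were seen, the thioesterase Acot1 was higher by 1.81 ± 0.65 (0.92 without Western male 2) and the receptor Ppara itself by 0.43 ± 0.22. The main oxidation enzymes Cpt1a, Acadm, Hadha and Ehhadh differed by 0.02 to 0.17, and their diet groups overlapped.

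Among genes of fat uptake, Fabp1 and Cd36 had the largest differences. Fabp1, a fatty acid binding protein of the enterocyte cytosol, measured 5.56 and 6.24 on the control arrays and 7.01 and 8.19 on the Western arrays, a difference of 1.70 ± 0.47. Cd36, a fatty acid transporter of the cell surface, measured -2.03 and -1.57 against -0.65 and 0.43, a difference of 1.69 ± 0.42. Both genes were higher on each Western array than on each control array, and Western male 2 was the highest for both. Without that array the Fabp1 difference was 1.11. Against these, the cholesterol transporter Npc1l1 was lower by 0.44 ± 0.21 and Fabp2, a second fatty acid binding protein, by 0.27 ± 0.24, each without overlap. Of 27 measured genes of fat absorption and chylomicrons, 2 were higher (7.41%) and 4 lower (14.8%) without overlap, which is no larger share than over all genes in the higher direction (14.1%) and near it in the lower (10.5%). Without Control male 1, 4 lay above Control male 2 on both Western arrays (14.8%) and 13 below it (48.1%), with a median of -0.17. Over all genes these shares were 33.8% and 33.3%. The list's median was 0.05 over all 4 arrays and 0.30 without Control male 2, so its sign depended on the control array used. The chylomicron genes Apob, Mttp, Apoa4 and Dgat2 differed by -0.09 to 0.16, and their groups overlapped.

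Me1 and Scd1 had the largest differences among genes of lipid synthesis and its NADPH supply. Me1, the cytosolic malic enzyme that makes NADPH, measured -0.62 and -1.57 on the control arrays and 1.31 and 4.01 on the Western arrays. The difference of 3.75 ± 0.90, or 13.5-fold, was the largest of the 12 genes drawn on the left of the plot by array, and all 3 probes of Me1 gave between 3.30 and 3.75. Scd1, the desaturase that makes oleate from stearate, measured -0.73 and -1.92 against 0.39 and 2.26, a difference of 2.65 ± 0.71. For both genes Western male 2 lay far above Western male 1, so that the spread within the Western diet was wide. Without Western male 2 the differences were 2.41 and 1.71. Acacb, the acetyl-CoA carboxylase linked to mitochondria, was higher by 0.57 ± 0.22 and Fasn, fatty acid synthase, was lower by 0.26 ± 0.22, each without overlap. Of the 16 measured genes of fatty acid synthesis and desaturation, 4 were higher and 2 lower without overlap, with a median of -0.06.

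A transporter and 2 enzymes of sugar digestion and uptake lay on the other side. Slc2a2, the glucose and fructose transporter GLUT2 of the basolateral membrane, measured 1.90 and 2.78 on the control arrays and 0.81 and 0.74 on the Western arrays, a difference of -1.56 ± 0.34. Sis, the brush-border enzyme sucrase-isomaltase, measured 7.74 and 8.07 against 6.98 and 6.79, a difference of -1.02 ± 0.24. Mgam, maltase-glucoamylase, measured 5.07 and 4.63 against 3.97 and 2.86, a difference of -1.44 ± 0.42. All 3 genes were lower on both Western arrays, and Sis and Slc2a2 differed little between the Western arrays. Without Western male 2 the Mgam difference was -0.88. Of 13 measured members of the list, these 3 were lower without overlap and 0 were higher, with a list median of -0.17. The median was -0.44 without Control male 1 and 0.00 without Control male 2, so the shift of the list as a whole depended on the control array used. The apical glucose transporter Slc5a1, named after its values were seen, measured 4.68 and 5.84 against 4.82 and 3.90, so that its groups overlapped. Lactase (Lct), the fructose transporter Slc2a5 and the fructose kinase Khk differed by -0.12 to 0.07.

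Glucose release and use differed gene by gene. G6pc, glucose-6-phosphatase, the last step of glucose release, was higher by 1.09 ± 0.25, with 1.18 and 1.04 on the control arrays and 2.41 and 1.99 on the Western arrays. Pcx, pyruvate carboxylase, was lower by 0.54 ± 0.30. Of 20 measured genes of glycolysis, 4 were lower and 0 higher without overlap (Pfkm, Pklr, Slc16a1 and Pfkp), with differences between -0.36 and -0.17. The second probe of Pfkp gave 0.33, in the other direction. Without Control male 1, 2 of the 20 lay above Control male 2 on both Western arrays (10%) and 13 below it (65%), with a median of -0.25. The median was -0.10 over all 4 arrays and 0.12 without Control male 2, so its sign depended on the control array used. The creatine kinase Ckb, which buffers ATP, measured 1.41 and 1.36 against 0.66 and 0.58, a difference of -0.77 ± 0.21, and both of its probes were lower.

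Most respiratory chain genes had small positive differences. Of 52 measured genes of oxidative phosphorylation, 25 were higher without overlap (48.1%) and 0 were lower, against 14.1% and 10.5% of all genes. A positive difference was found for 50 of the 52, with a median of 0.21. None reached 2-fold. Atp5g3, a subunit of the ATP synthase ring, measured 7.69 and 7.77 on the control arrays and 8.07 and 8.25 on the Western arrays, a difference of 0.43 ± 0.22. Cox6c, of cytochrome oxidase, and Ndufv2, of complex I, were higher by 0.41 ± 0.25 and 0.28 ± 0.22. Without Control male 1, 27 members lay above Control male 2 on both Western arrays (51.9%) and 3 below it (5.77%), with a median of 0.17. Over all genes these shares were 33.8% and 33.3%. On slide 1 alone the median was 0.12, and without Western male 2 it was 0.08. Of 32 genes of pyruvate dehydrogenase and the TCA cycle, 9 were higher without overlap, among them Sdhc, Sdhd, Mdh1 and Idh1 by 0.22 to 0.50, and 2 were lower. A second probe of Sdhc gave 0.01.

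**Figure D3:**
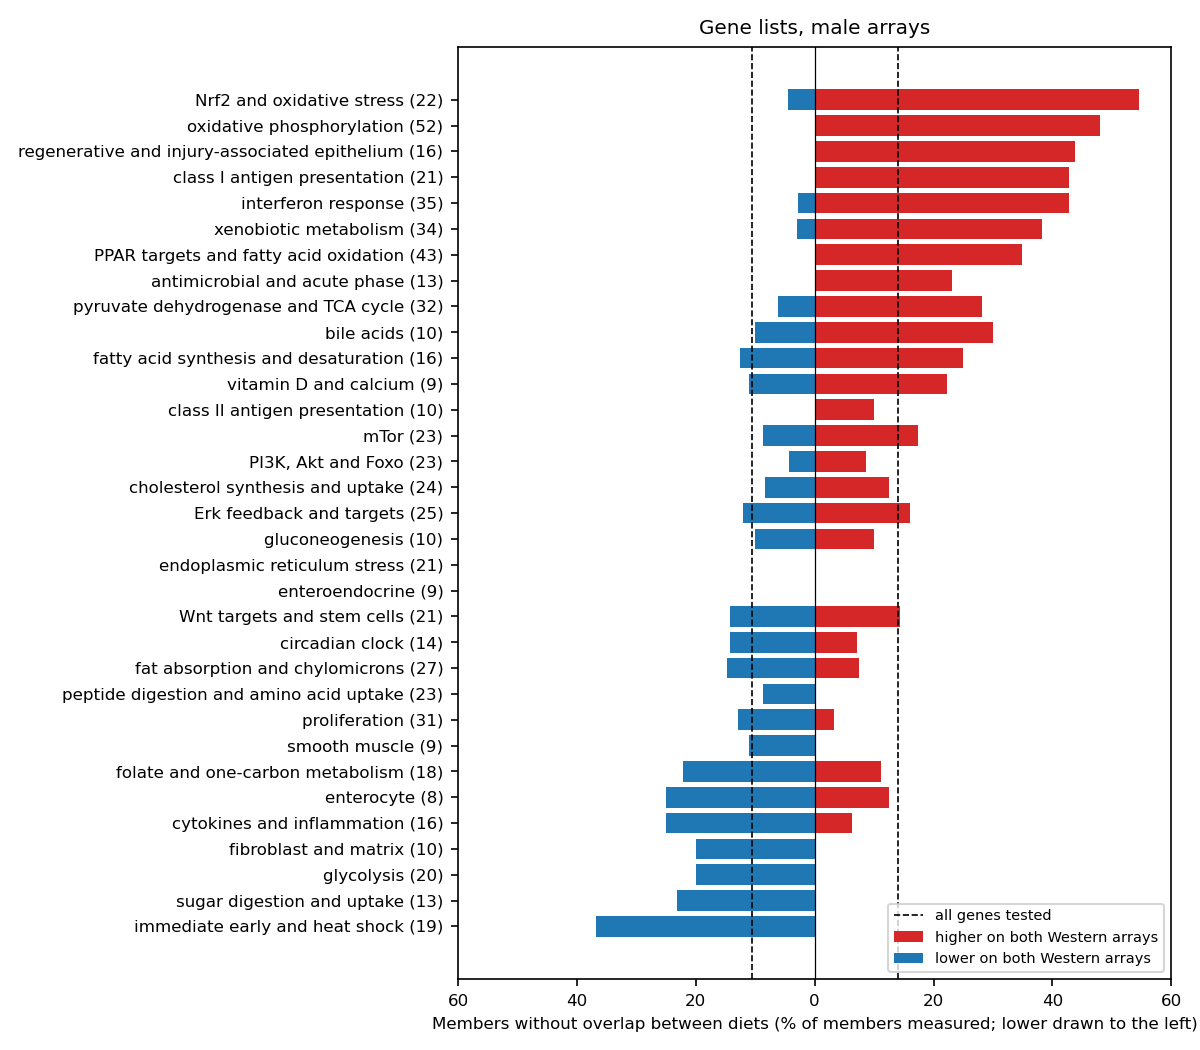
Share of each list's measured members that lay above (red, to the right) or below (blue, drawn to the left) every control array on both Western arrays, for lists with at least 8 measured members, whose number stands in brackets. Dashed lines mark the shares over all genes tested, 14.1% and 10.5%. Oxidative stress, respiratory chain, epithelial injury, class I, interferon and xenobiotic genes reach farthest to the right, and immediate early genes reach farthest to the left.

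Promoters were read for 3 genes of fat and carotene use to show whether they share a PPAR-type element, and for Sis to show a hepatocyte nuclear factor 1 half-site, since HNF1 factors are known regulators of that gene. The element searched was 2 copies of the nuclear receptor half-site AGGNCA in the same orientation with 1 base between them, on both strands of the 250 bases before the transcription start. It occurred in 0.338% of 32851 RefSeq promoters of that length. The stretches come from the RefSeq annotation of GRCm38.p6, are written 5′ to 3′ along the gene, and carry matches in capitals. Pdk4 lies on the minus strand (chr6:5496279-5496528), Fabp1 on the plus strand (chr6:71199629-71199878), Bco1 on the plus strand (chr8:117095615-117095864) and Sis on the minus strand (chr3:72967864-72968113).
Pdk4: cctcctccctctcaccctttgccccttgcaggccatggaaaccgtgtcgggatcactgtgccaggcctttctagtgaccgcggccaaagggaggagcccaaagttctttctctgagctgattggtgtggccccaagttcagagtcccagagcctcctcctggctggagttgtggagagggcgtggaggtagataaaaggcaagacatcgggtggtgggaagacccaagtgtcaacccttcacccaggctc
Fabp1: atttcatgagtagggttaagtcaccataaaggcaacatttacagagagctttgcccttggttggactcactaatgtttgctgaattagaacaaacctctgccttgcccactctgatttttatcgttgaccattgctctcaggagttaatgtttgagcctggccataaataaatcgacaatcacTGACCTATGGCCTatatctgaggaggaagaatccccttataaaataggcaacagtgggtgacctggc
Bco1: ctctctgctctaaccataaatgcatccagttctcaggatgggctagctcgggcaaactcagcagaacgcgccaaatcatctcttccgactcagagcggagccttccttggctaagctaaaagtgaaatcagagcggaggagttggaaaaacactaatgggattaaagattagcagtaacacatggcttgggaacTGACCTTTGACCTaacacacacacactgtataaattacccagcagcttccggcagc
Sis: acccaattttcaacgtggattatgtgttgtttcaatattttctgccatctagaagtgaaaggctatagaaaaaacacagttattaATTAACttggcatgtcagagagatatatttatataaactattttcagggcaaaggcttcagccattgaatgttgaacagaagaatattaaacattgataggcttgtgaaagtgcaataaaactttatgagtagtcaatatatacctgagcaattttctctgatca
The Fabp1 and Bco1 windows each held 1 match, on the minus strand, beginning 67 and 56 bases before the start. Fabp1 was higher and Bco1 lower on the Western diet, so the match went with both directions. The Pdk4 window held no match of these letters. Over the 38 tested genes with the element, 7 were higher and 3 lower without overlap and the median difference was -0.01, with 14.1% and 10.5% of all genes as the background. The capitals in Sis mark the half-site GTTAAT, read on the minus strand 165 bases before the start, which 6.43% of all promoters held. Of 549 tested genes with it, 70 were higher and 60 lower without overlap.

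Bco1 and Stra6, both of vitamin A metabolism, lay at opposite ends. Bco1, which cleaves beta-carotene to retinal, measured -1.62 and -2.97 on the control arrays and -4.48 and -4.27 on the Western arrays, a difference of -2.08 ± 0.47 (-1.19 with normexp correction) and the largest gap of all named genes that were lower. Stra6, the membrane receptor for retinol-binding protein, was not well above background on either control array and measured -1.58 and -2.67 on the Western arrays. It was at least 9.16-fold higher on the Western diet, counting the dim arrays at their lowest signal well above background.

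Several drug-metabolising and antioxidant genes were higher. Cyp2c55, a cytochrome P450, measured 0.84 and 1.82 on the control arrays and 2.62 and 3.41 on the Western arrays, a difference of 1.68 ± 0.44. The glutathione transferases Gstm3 and Gstm1 were higher by 1.82 ± 0.55 and 1.42 ± 0.53, and for both Western male 2 was the highest array. Without it the differences were 1.05 and 0.62. Close relatives among these families can share signal on a probe. Of 34 measured xenobiotic genes, 13 were higher (38.2%) and 1 lower (2.94%) without overlap, with a median of 0.51. Without Control male 1, 16 lay above Control male 2 on both Western arrays (47.1%), 4 lay below it (11.8%), and the median was 0.23. The lower one was Ahrr, whose product represses signalling by the aryl hydrocarbon receptor, at -3.21 and -2.59 against -4.28 and -3.89, a difference of -1.19 ± 0.31, or -0.60 with normexp correction.

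The aldo-keto reductase Akr1b8, which detoxifies aldehydes, measured 0.42 and -0.53 on the control arrays and 2.18 and 2.12 on the Western arrays, a difference of 2.20 ± 0.36. Of 22 measured genes of the Nrf2 and oxidative stress list, 12 were higher (54.5%) and 1 lower (4.55%) without overlap. The median was 0.29, or 0.23 without Control male 1. Besides Me1, the members with the largest gap were Gsr, which recycles glutathione, Gclm, a subunit of the enzyme that begins its synthesis, and Gpx2, the epithelial glutathione peroxidase. They were higher by 0.80 ± 0.22, 0.54 ± 0.21 and 0.97 ± 0.34. Nfe2l2, which encodes Nrf2, differed by -0.42 with overlap.

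S100g, calbindin-D9k, which carries calcium through the enterocyte and is a vitamin D target, measured -0.77 and 0.26 on the control arrays and 3.07 and 1.79 on the Western arrays. The Western arrays lay above both controls, by 2.69 ± 0.54 on the mean, and its 2 probes gave 2.64 and 2.69. The apical calcium channel Trpv6 and the receptor Vdr, of the same pathway, differed by 0.12 and 0.09, with overlap. Slc34a2, a phosphate transporter, was lower by 0.95 ± 0.35. Of 9 measured genes of the vitamin D and calcium list, 2 were higher (22.2%) and 1 lower (11.1%) without overlap, against 14.1% and 10.5% of all genes. Of 18 folate and one-carbon genes, 2 were higher (11.1%) and 4 lower (22.2%). The largest of the named differences was 0.70 (Folr1, whose second probe gave -0.40).

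Genes of squamous and injured epithelium held the largest gap of all. Krt14, a keratin of the basal layer of stratified epithelia, measured -3.65 and -3.90 on the control arrays and -1.19 and -0.78 on the Western arrays, a difference of 2.79 ± 0.26, or 1.76 with normexp correction. Anxa8, an annexin of squamous and regenerating epithelia, measured -3.41 and -2.85 against -0.06 and -0.81, a difference of 2.70 ± 0.36, and 1.06 by its second probe. Each of these genes spread less within a diet than between the diets. Anxa1 measured 0.08 and -1.92 against 1.86 and 0.79, a difference of 2.25 ± 0.72 with the control arrays far apart, and of 1.25 without Control male 2. Krt7, of simple ductal epithelia, was higher by 0.65 ± 0.23. Krt6a, a keratin of wounded epidermis named after its values were seen, was above background only on the Western arrays, at -3.59 and -3.49, and at least 3.44-fold higher there.

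Of 16 measured members of that list, 7 were higher (43.75%) and 0 lower without overlap, with a median of 0.28. Without Control male 1 the median was 0.49, and 11 members lay above (68.75%) and 3 below (18.75%) Control male 2 on both Western arrays. Clu, a marker of regenerating crypt cells chosen after its values were seen, was higher by 1.81 ± 0.73, and by 0.75 without Control male 1. Of 5 measured crypt stem cell markers, 3 were lower without overlap and 2 had a positive difference with overlap (Axin2 at 0.44 and Rnf43 at 0.32). The lower ones were Smoc2 by -0.61 ± 0.22, Lgr5 by -0.67 ± 0.31 and Ascl2 by -0.37 ± 0.23, and without Control male 1 Lgr5 differed by -0.33. Over the 21 genes of Wnt targets and stem cells, 3 were higher and 3 lower. Of 31 proliferation genes, 1 was higher (Pcna, by 0.20 ± 0.22) and 4 lower without overlap (Top2a by -0.57 ± 0.31), with a median of -0.13 that became 0.07 without Control male 1.

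Some mast cell genes were higher on both Western arrays. Mcpt4, a mast cell chymase, measured -1.52 and -2.47 on the control arrays and 0.67 and -0.48 on the Western arrays, a difference of 2.09 ± 0.50. Mcpt1 and Mcpt2, the proteases of intestinal mucosal mast cells, were higher by 2.14 ± 0.56 and 2.27 ± 0.65, the latter by 1.48 without Western male 1. The sequences of these proteases are close, so their probes may not be independent. Cpa3 and Fcer1a, a mast cell peptidase and the binding chain of the IgE receptor, were above background only on the Western arrays, at least 2.58-fold and 3.06-fold higher. The tryptase Tpsb2 and the receptor Kit were above background on all arrays with overlapping groups. In all, 5 of 7 mast cell markers were higher or seen only on the Western arrays, and the list's sum was 5.27 and 2.47 times that of Control male 2 on Western male 1 and Western male 2 and 1.55 times on Control male 1. The number of mast cells was not measured, and the part of mast cell content in other differences was not tested.

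Some interferon response and class I presentation genes were higher without overlap. Isg15, a ubiquitin-like protein, measured 2.79 and 2.52 on the control arrays and 3.47 on both Western arrays, a difference of 0.82 ± 0.22. Rtp4, Oas2 and Usp18 were higher by 0.95 to 1.05. Of 35 measured interferon response genes, 15 were higher (42.9%) and 1 lower (2.86%) without overlap, with a median of 0.32. When Control male 1 was left out, 19 lay above (54.3%) and 5 below (14.3%) Control male 2 on both Western arrays. The guanylate-binding proteins did not share this direction: Gbp2b, an interferon-induced GTPase outside the list, measured -2.53 and -2.32 against -3.40 and -3.28, a difference of -0.92 ± 0.22, and Gbp2, Gbp3, Gbp4 and Gbp6 differed by -0.51 to -0.05 with overlap. Of 21 class I presentation genes, 9 were higher (42.9%) and 0 lower without overlap, with a median of 0.28. They included the immunoproteasome subunits Psmb8, Psmb9 and Psmb10 (0.46 ± 0.26, 0.31 ± 0.22 and 0.50 ± 0.23) and the peptide transporter subunit Tap2 (0.41 ± 0.24). Of 10 class II genes, 1 was higher and 0 lower without overlap, with a median of -0.06. Without Control male 1, 10 class I genes lay above Control male 2 on both Western arrays and 5 below it. For class II these counts were 1 and 5.

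Macrophage and plasma cell genes lay lower. All 6 measured macrophage markers had a negative difference, and 4 were lower without overlap (66.7%, against 10.5% of all genes). These were Csf1r, the receptor for macrophage growth factor, by -0.38 ± 0.22, Adgre1 by -0.53 ± 0.30, C1qb by -0.31 ± 0.25 and Itgax by -0.28 ± 0.25. The plasma cell genes Jchain and Mzb1 were lower by 0.80 ± 0.40 and 0.70 ± 0.40, and their differences without Western male 2 were -0.24 and -0.14. That array was the low one, where Jchain measured 4.62 against 5.73 to 6.00 on the other arrays. Il22ra2, the soluble decoy receptor for interleukin 22, measured -0.85 and -0.10 on the control arrays and -1.57 and -2.09 on the Western arrays, a difference of -1.35 ± 0.35. Of 16 measured cytokine and inflammation genes, 1 was higher and 4 lower without overlap, Il1b by -1.02 ± 0.43. Without Control male 1, 3 lay above and 9 below Control male 2 on both Western arrays. T cell markers summed to 0.40 times the Control male 2 level on Control male 1 and to 1.13 and 0.70 times on the Western arrays, so the groups overlapped. Among antimicrobial genes, Duoxa2, the maturation factor of the hydrogen peroxide producing oxidase Duox2, was higher by 1.19 ± 0.22, while Reg3b and Reg3g differed by -0.06 and 0.05.

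Of 25 measured Erk targets and feedback genes, 4 were higher (16%) and 3 lower (12%) without overlap, shares near those of all genes (14.1% and 10.5%). Etv4 and Etv5, transcription factors downstream of Erk, were higher by 0.86 ± 0.32 and 0.80 ± 0.40, while Fos and Egr1 differed by -1.10 ± 0.38 and -0.98 ± 0.43. Western male 1 was the highest array for Etv4 and Etv5, and without it their differences were 0.50 and 0.25. The feedback genes Dusp6, Dusp4 and Spry1 differed by -0.18 to -0.08. The immediate early and heat shock list held 7 lower and 0 higher genes of 19 measured, Fosb and Dusp1 among them, with a median of -0.21 and, without Control male 1, of -0.54. The median was -0.15 without Control male 2. Fos measured 1.71 and 2.63 on the control arrays and 1.31 and 0.82 on the Western arrays. Control male 2 was the highest array and Western male 2 the lowest. Without Control male 2 the Fos difference was -0.64, and without Western male 1 that of Egr1 was -0.42.

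Of 23 measured genes of the PI3K, Akt and Foxo list, 2 were higher (8.70%) and 1 lower (4.35%) without overlap, below the shares of all genes, and Akt1, Akt2 and Pik3ca differed by -0.01 to 0.04. Klf15, which encodes a zinc finger factor active in fasting, was higher by 1.27 ± 0.29, with -2.70 and -2.78 on the control arrays and -1.80 and -1.15 on the Western arrays. Igf1r, the receptor for insulin-like growth factor 1, differed by -0.43 ± 0.21 without overlap. Of 23 mTor pathway genes, 4 were higher and 2 lower without overlap, shares near those of all genes, and the median was -0.03. Mtor and its partners Rptor and Rictor differed by -0.10, 0.31 and 0.14. The largest gap belonged to Tsc1, an inhibitor of the pathway, higher by 0.37 ± 0.22. The array measures transcripts, so kinase activity was not measured.

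Muscle and matrix genes could not be read for diet without regard to Control male 1. Actg2, an actin of visceral smooth muscle, measured 3.19 and -2.55 on the control arrays and -1.23 and -2.84 on the Western arrays, so that Western male 1 lay between the control arrays and Western male 2 just below them. Its mean difference of -2.35 ± 1.84 became 0.52 without Control male 1. The median of the 9 measured smooth muscle genes was -0.68, and 0.23 without that array. For the 10 measured fibroblast and matrix genes it was -0.84, and 0.30 without that array. Of 22 measured members of the muscle, matrix and neuron lists, 6 had a mean difference of -1 or lower, and 1 of these (Col6a1) was also without overlap. The 4 members without overlap were Mylk, Col6a1, Col6a2 and Snap25. Col6a2, a chain of collagen VI, measured -3.25 and -3.95 against -4.28 and -4.86, a difference of -0.97 ± 0.35 that was -0.62 without Control male 1. Over all genes, 141 had a mean difference of -1 or lower, and 43 of them stayed there against Control male 2 alone.

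**Figure D4:**
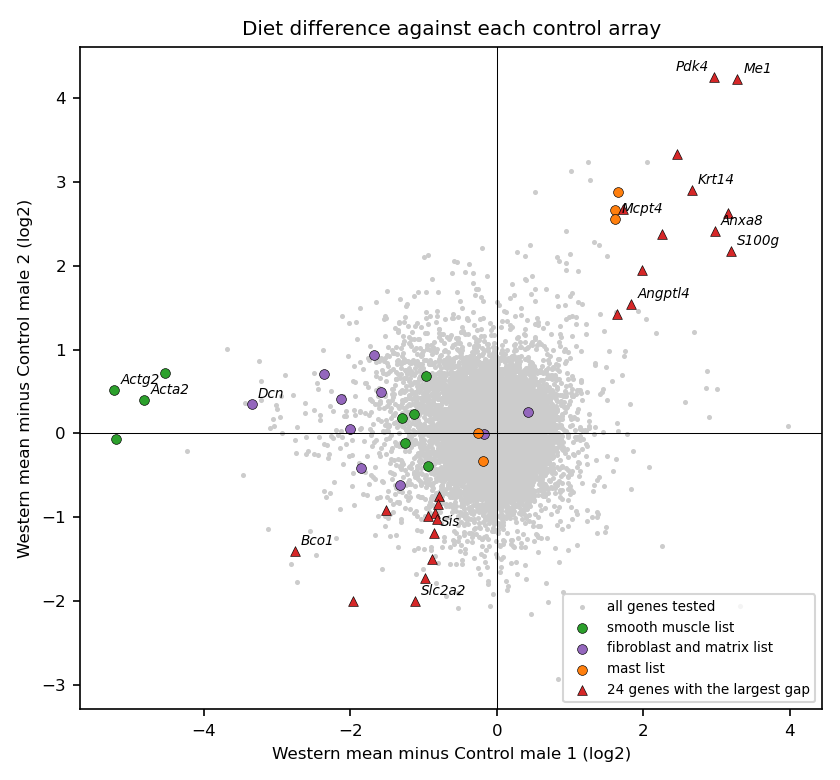
Mean of the Western arrays minus Control male 1 (horizontal) and minus Control male 2 (vertical) for every gene tested, in log2. The smooth muscle and matrix genes reach far to the left while staying between -1 and 1 on the vertical axis. The 24 genes with the largest gap (triangles) lie on the same side of 0 on both axes, which their choice by gap requires.

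The remaining genes with large gaps belonged to no common list. Renbp, a renin-binding protein and sialic acid precursor epimerase, measured -2.95 and -3.82 on the control arrays and -1.35 and 0.37 on the Western arrays, a difference of 2.90 ± 0.63. Wfdc18, a secreted protein of the whey acidic family, measured -5.07 and -4.55 against -0.67 and -3.17, a difference of 2.89 ± 0.81 that was 1.64 without Western male 1 and 1.52 with normexp correction. The proton channel Otop2 measured -1.34 and -1.46 against -0.08 and 1.91, a difference of 2.32 ± 0.65 that was 1.32 without Western male 2. The water channel Aqp8 measured -4.79 and -4.57 against -2.91 and -3.38, a difference of 1.54 ± 0.26 that was 0.59 with normexp correction. Mdfi, an inhibitor of myogenic transcription factors, measured -4.20 and -4.17 against -2.08 and -2.35, a difference of 1.97 ± 0.22, or 0.94 with normexp correction.

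Among lower genes, Rab27a, a GTPase of secretory vesicles, measured -1.16 and -1.12 on the control arrays and -2.13 and -4.11 on the Western arrays, a difference of -1.98 ± 0.64 that was -0.99 without Western male 2. Asphd2, the axonal protein gene Cntnap1, and the uncharacterised 2900052N01Rik and 1700019D03Rik had differences from -1.22 to -0.82. Of the 12 largest gaps in the lower direction regardless of name, 8 belonged to probes without a symbol, against 1 in the higher direction. Among all 17249 genes tested, 4663 had no symbol. Genes without a symbol are not described one by one here.

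Genes above background on only 1 diet stand outside those counts. Such genes numbered 73 on the Western diet, 52 with a symbol, and 63 on the control diet, 37 with a symbol, on arrays of 39429 probes. Their share over all genes on the array was not computed, so the counts are no result about diet. The bound was over 1-fold for 71 and 63 of them. On the Western diet it went down to 1.03-fold (Speer5-ps1), near the limit of detection. With Stra6, the largest bounds among genes with a symbol on the Western diet belonged to Bpifb5, a secreted lipid-binding family member (at least 10.1-fold), and 1700057G04Rik (at least 5.84-fold). Among genes with a symbol, those on the control diet belonged to Parvb, an adaptor of integrin signalling (at least 4.69-fold), Clip4 (at least 3.18-fold) and Tceal5 (at least 2.82-fold). All of these rest on 2 arrays a diet and carry no test.

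The diet difference was set against that of the 4 female arrays in a fit over all 8 arrays. Both female control arrays have limits: the library labelled Control female 1 held the Y-linked transcripts Ddx3y and Eif2s3y at male levels (-0.35 and 2.01), and Control female 2 had 75.6% of probes well above background, against 55.1% to 61.9% on the other arrays. No gene passed limma's adjusted threshold for the difference between the sexes in the diet effect (smallest adjusted p 0.853), and 243 genes (1.41%) had an unadjusted p under 0.05. Leaving out Control female 2, 2 genes passed it, Ddx3y and Uty, which are Y-linked. The female difference was 2.88 for Pdk4, -1.46 for Slc2a2, -1.09 for Sis and -1.05 for Mgam, of the same sign as in males and without overlap. Bco1 differed by -2.90 ± 1.37 in females, with overlap. It measured -2.82 on Control female 1 and 1.67 on Control female 2, against -2.38 and -4.57 on the Western female arrays. For Krt14, Anxa8 and S100g the female difference was -0.45, -0.70 and 0.55, against male differences of 2.79, 2.70 and 2.69.

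**Figure D5:**
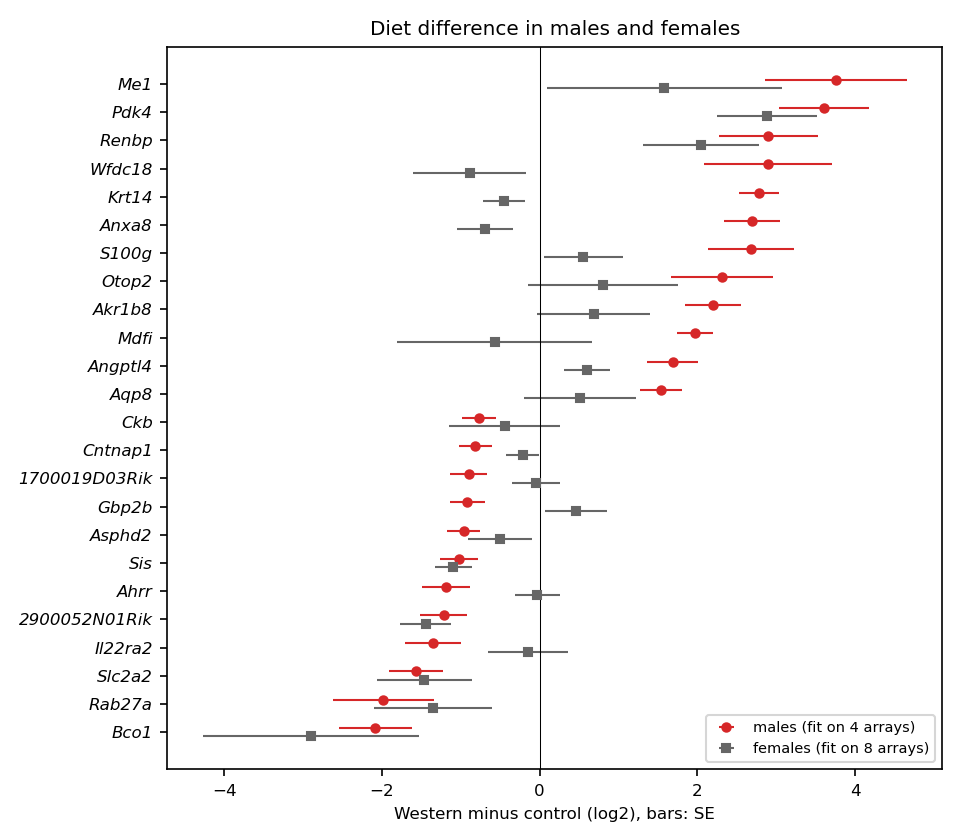
Western minus control difference in log2 for the 24 genes with the largest gap in males, with bars of 1 SE. Red points come from the fit on the 4 male arrays and grey squares from the fit on all 8 arrays. Pdk4, Renbp, Slc2a2, Sis and Bco1 lie on the same side of 0 in both sexes, though the female diet groups overlap for Bco1. Krt14, Anxa8, Wfdc18, Mdfi and Gbp2b lie on opposite sides, though the female diet groups overlap for Mdfi and Gbp2b.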

How the data were processed

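Each deposited file was the Feature Extraction 10.7.3.1 output of 1 single-colour Agilent array (design 026655), per the file headers. Values came from the deposited processed signal, an intensity that the scanner software had corrected for background, as the headers record. Control spots (1377) and outlier spots were left out, the 399 repeated probes were averaged, and log2 signal minus the array's 75th percentile over probes was taken. Probe accessions were named through RefSeq (assembly GRCm38.p6): 26412 of 39429 probes received a symbol and 13017 kept their file name. Coordinates are those of GRCm38.p6, while the headers name mm9. The probe with the highest mean stood for a gene. Western minus control was fitted with limma 3.58.1 in R 4.3.3 on 4 arrays (2 residual and 3.33 prior degrees of freedom), with Benjamini-Hochberg adjustment. Probes not well above background on all 4 arrays were left out.

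The named genes were the 12 with a symbol and the largest gap in each direction outside muscle, matrix and neuron lists, up to 4 members of each of 46 lists with the largest gap, Pdk4, the 3 largest bounds per direction, and Y-linked genes and Xist. The text prints those that its results turn on. Other list members it prints fell outside that rule and were picked with their values in view. Members and lists were chosen with earlier results of these data known. Slide 1 held Control male 1 and Western male 1, slide 2 Western male 2 and slide 3, scanned on day 2, Control male 2. Xist and Kdm5d were not usable as label checks, being above background on 0 and 1 arrays. The number of arrays limits the precision. Alternatives were background correction, scaling, filters, probe rule, variance models, replicate and scan day blocks, and each array left out. Some genes that the lists or the rule hold are not reported here.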

Additional observations from a re-analysis of the deposited data

Results flagged for a closer look

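For 10 of 132 named genes the diet difference pointed in opposite directions in the sexes. Both Western arrays lay on 1 side of both control arrays in males and on the other side in females. None of these differences passed limma's interaction test over 8 arrays after Benjamini-Hochberg adjustment (adjusted p of at least 0.853 for each), and the limits of both female control arrays apply to all of them. The female minus male difference was -3.23 for Krt14, -3.39 for Anxa8 and -3.78 for Wfdc18, which were higher on the Western diet in males. It was -0.51 for the bile acid transporter subunit Slc51b and -1.32 for Avil, a tuft cell gene, in the same pattern. It was 1.67 for Jchain, 1.49 for Mzb1, 1.14 for Igf1r, 0.96 for Csf1r and 1.21 for Adgre1, which were lower on the Western diet in males. Other named genes, among them Pdk4, Renbp, Slc2a2, Sis and Mgam, were without overlap in the same direction in both sexes. Such genes were not counted, and the opposite pattern was not counted over all genes tested. The named genes were chosen for lack of overlap in males. Whether 10 of 132 exceeds the share over all genes is therefore not known, and the count is no result about the sexes.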

How the results depend on the processing

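With 2 arrays a diet, leaving out 1 array at a time moved the counts of genes past 2-fold without overlap to between 157 and 276 higher and between 116 and 579 lower, and the Pdk4 difference to between 2.96 and 4.25. Leaving out Control male 1 gave 276 and 204, Control male 2 gave 157 and 579, Western male 1 gave 193 and 406, and Western male 2 gave 165 and 116. Leaving an array out needs no overlap with fewer arrays, so more genes meet that condition by construction. The mean difference changes as well, so the calls are not the same genes. Of the 71 higher and 71 lower genes of the main analysis, 60 and 34 were kept without Control male 1, and 50 and 36 without Western male 2. Without Control male 2 the muscle-rich Control male 1 was the only control array. Scan day as a block equals leaving out Control male 2 (157 and 579), and slide 1 alone gave 193 and 361, with Pdk4 at 2.38 and no test. Normexp background correction, chosen after seeing the data because the planned signal column was not in the files used here, gave 50 higher and 32 lower, so that 61.0% of the calls were higher against 50% in the main analysis. The planned version was not run. Probes above background on at least 2 arrays gave 145 and 166, and no filter gave 364 and 782. With the replicate number as a block, 78 were higher and 127 lower within both pairs, and 0 passed limma's adjusted threshold (720 at an unadjusted p under 0.05). The deviations of same-numbered arrays correlated at 0.389, over 2 pairs only, and the labels tie the numbers to nothing. Median centring and quantile normalization moved the median of all genes by less than 0.01. The 24 genes with the largest gap kept their direction under all 15 alternatives. Their choice by gap on these arrays fixes the direction wherever arrays are left out or only the model changes. With normexp correction 10 of the 24 shrank by over 1.5 times on the log2 scale, and Pdk4 was at 2.45. Gpbar1 turned to 0.043 with quantile normalization and Pfkp to 0.079 with the mean over probes. For the difference between the sexes, 2 genes passed without Control female replicate 2. The causes were not tested.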

Other observations

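Enteroendocrine genes and endoplasmic reticulum stress genes showed little: 0 of 9 and 0 of 21 measured members were without overlap, with medians of 0.11 and 0.14. Of 10 bile acid genes, 3 were higher without overlap, among them Abcc3, a basolateral bile acid exporter, by 0.59 ± 0.25 and Nr1h4, the bile acid receptor FXR, by 0.54 ± 0.34, and 1 was lower. Of 24 cholesterol genes, 3 were higher (12.5%) and 2 lower (8.33%) without overlap, near the shares of all genes (14.1% and 10.5%), with a median of 0.03. Of 14 circadian clock genes, Bhlhe40 differed by -0.81 ± 0.28 and Clock was higher by 0.28 ± 0.23. The clock list's median of 0.37 became -0.34 without Control male 1. Both goblet cell genes without overlap, Fcgbp and Zg16, were lower (-0.28 ± 0.22 and -0.21 ± 0.23), and Mme, a brush-border peptidase, differed by -0.65 ± 0.30.

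Anxa10 and Tff1, known from gastric surface epithelium, and Timp1, a metalloproteinase inhibitor, were above background only on the Western arrays and were picked out after their values were seen. Anxa10 measured -1.67 and -4.10 there and was at least 5.42-fold higher, Timp1 measured -2.95 and -4.62 and was at least 2.91-fold higher, and Tff1 measured -3.89 and -4.99. Red cell markers summed to 2.04 times the Control male 2 level on Western male 1 and to 0.69 and 0.72 times on Control male 1 and Western male 2.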
